A study of Homo sapiens with 4 samples.

Results

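Proteasome genes were taken from a list of 18993 peaks, stretches of the genome in which RNA recovered with the arginine methyltransferase PRMT5 was counted beside input RNA. A peak entered the set when its gene identifier mapped to a protein-coding symbol that begins with PSMA, PSMB, PSMC, PSMD, PSME, PSMF or PSMG followed by a digit. The symbol came from the study's supplement or, where it gave none, from the GRCh38 gene on the same strand. Of 50 such symbols, 46 had peaks, 118 peaks in all, in a list that holds 8478 genes when each peak is counted under its first identifier. PSMC3IP and PSME3IP1 carry the name of a subunit that they bind but are not subunits, so the counts and medians cover the other 44 genes and their 111 peaks unless stated.

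The RNA came from Jurkat cells, a human leukemia line of T cell origin in long established use, that had been stimulated with the T cell mitogen PHA for 48 hours. UV light crosslinked RNA to protein before lysis, and the labels give it as 264 nm at 400 mJ. All 4 libraries share the cell line, the PHA treatment and the crosslinking, and they fall into 2 PRMT5 RIP libraries (RNA immunoprecipitated with PRMT5) and 2 input libraries. The authors deposited 1 pooled value per peak for PRMT5 RIP and 1 for input, in RPM (read counts scaled to library size), so the spread between replicates is not known for any value and no difference could be tested. As a check of the cell type, 8 of 10 T cell marker genes had peaks, among them CD3D and LCK, against 1 of 10 markers of other cell types, CD79A of the B cell receptor. PTPRC and TRAC were the T cell markers without a peak.

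The proteasome degrades proteins that carry ubiquitin chains. Its 20S core is a barrel of alpha rings, which gate the entrance, and beta rings, which hold the proteolytic sites; its 19S regulator has a base, with the ATPases that unfold substrates, and a lid, which removes ubiquitin. In immune cells some beta subunits can be exchanged for immunoproteasome subunits, which changes the peptides produced for presentation on MHC class I, and dedicated chaperones assemble the core and the base.

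Most proteasome genes were in the list, which holds 7187 named protein-coding genes. Of 15843 protein-coding symbols with a listed promoter 5956 were in it, beside 38 of 42 proteasome symbols. The genes were not matched in expression. Most proteasome genes in the list also had more RPM in PRMT5 RIP than in input, though few by a large factor. The list holds only peaks that the peak caller reported, 103 of these 111 at an FDR of 0.01 or below. An excess over input was thus in part set by how the list was made. For each gene the RPM of its peaks was summed in PRMT5 RIP and in input, and the log2 ratio of the 2 sums (0.01 RPM added to each) is the measure used here. The 44 genes had a median log2 ratio of 0.67, a 1.59-fold excess in PRMT5 RIP, and ranged from -0.64 to 2.04. Over all 8478 genes of the list the median was 1.20, or 2.30-fold, with an interquartile range of 0.77 to 1.71. A ratio of at least 2-fold was reached by 15 of the 44 genes, 34.1%, beside 62.3% of all genes. Together the proteasome genes held 0.587% of the RPM summed over all peaks in PRMT5 RIP and 0.508% in input.

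The ratio fell with the signal in input across the list (Spearman's rho -0.57 over 7187 named protein-coding genes, which share the pooled libraries). Over the 2126 of these with a summed input of at least 10 RPM rho was -0.19. Input is the denominator of the ratio, so a negative rho is in part built in. Proteasome genes lie toward the high end of input. Their median summed input was 43.6 RPM, against 2.28 RPM for all genes. Among genes with a summed input of at least 10 RPM, 9 of 35 proteasome genes and 32.7% of all 2269 genes reached 2-fold. With at least 1 RPM of input, 14 proteasome genes and 49.3% of all genes did. The medians at 10 RPM or more were 0.62 and 0.78, so the gap of the whole list was smaller between genes of like input. From 10 to 100 RPM the median was 0.66 for 24 proteasome genes and 0.80 for all genes, and at 100 RPM or more it was 0.53 for 11 proteasome genes and 0.59 for all genes. From 1 to 10 RPM, 5 of 8 proteasome genes reached 2-fold, beside 61.0% of all genes. Peak sums depend on the length covered, so they are not compared between genes as levels.

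**Figure D1:**
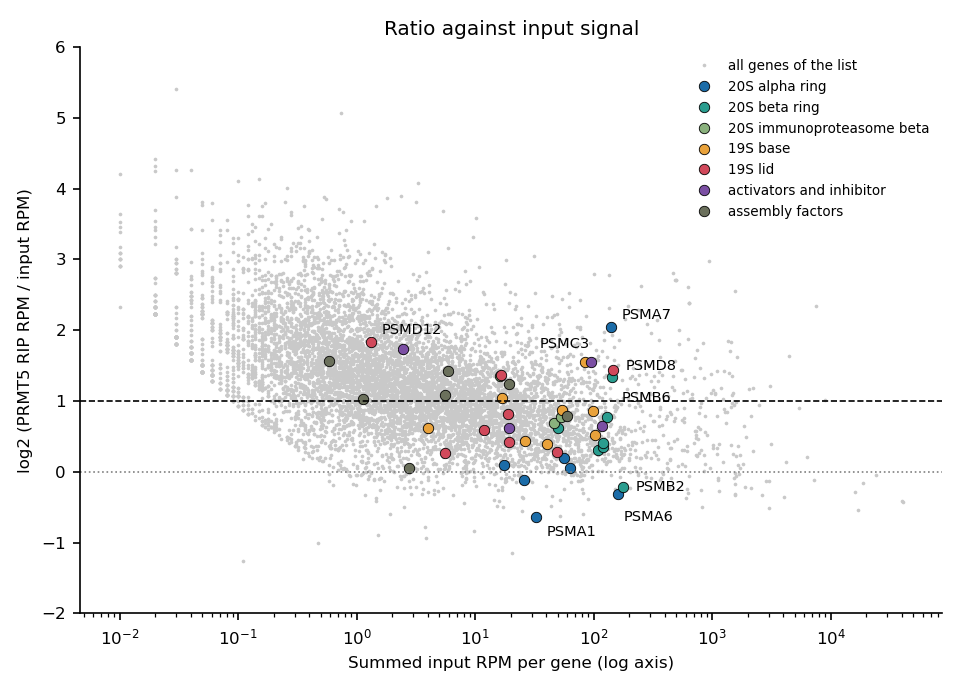
Log2 ratio of PRMT5 RIP to input RPM (vertical axis) against the summed input RPM of each gene (horizontal, log axis), 1 point per gene, for all genes of the list with input above 0 (grey) and for the 44 proteasome genes by structural group. The dashed line marks 2-fold and the dotted line equal RPM; the grey cloud declines to the right, and 35 of the 44 proteasome genes lie at 10 RPM of input or more, 9 of them past the dashed line.

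The structural groups did not have the same ratios, and the alpha ring had the lowest median of the 7. Its median log2 ratio was 0.05, against 0.41 for the constitutive beta ring, 0.78 for the immunoproteasome beta subunits, 0.74 for the 19S base, 0.70 for the 19S lid, 1.08 for the assembly factors and 1.09 for the activators and inhibitor. At least 2-fold was reached by 2 of 14 constitutive 20S core genes, 5 of 16 genes of the 19S regulator and 5 of 7 assembly factors, beside the 62.3% of all genes and, for the core, whose genes each had over 10 RPM of input, the 32.7% of genes in that range. With at least 10 RPM of input, 4 of 13 regulator genes and 1 of 2 assembly factors reached 2-fold, beside the same 32.7%. In that range the median was 0.86 for the base, 0.70 for the lid, 0.64 for the activators and inhibitor and 1.01 for the assembly factors. The immunoproteasome subunits and all genes were both at 0.78 there, and the alpha and beta rings stayed at 0.05 and 0.41. The groups overlapped in range, since the gene with the highest ratio of all, PSMA7, belongs to the alpha ring. Input differed between groups as well, with a median of 115 RPM for the constitutive core, 22.7 RPM for the 19S regulator and 5.59 RPM for the assembly factors, and its part in the differences was not tested.

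**Figure D2:**
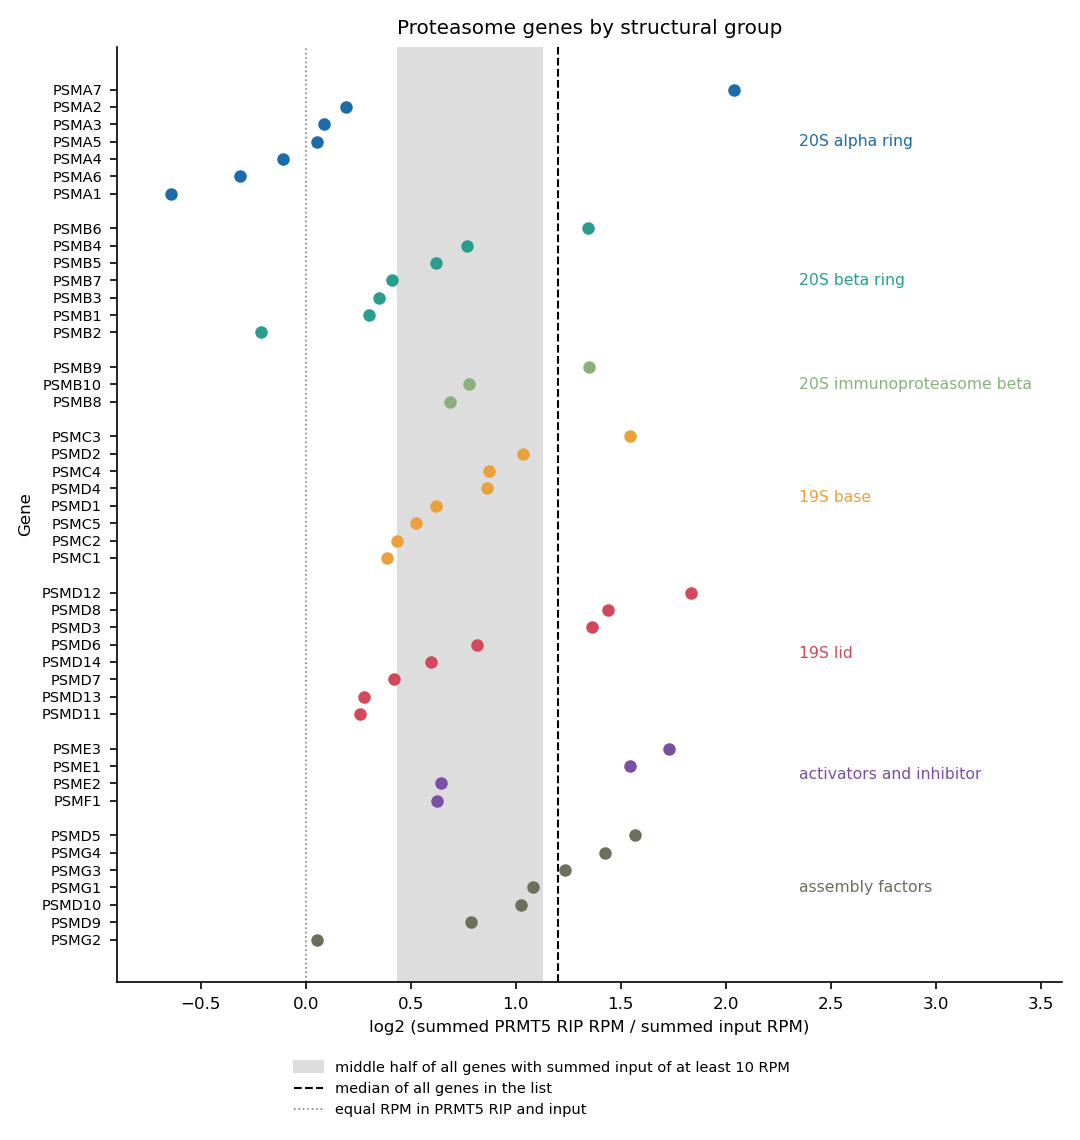
Log2 ratio of summed PRMT5 RIP RPM to summed input RPM (horizontal axis) for each of the 44 proteasome genes (vertical axis), sorted within 7 structural groups, 1 pooled value per gene and so without error bars. The grey band is the interquartile range of all genes with at least 10 RPM of input and the dashed line is the median of all genes, 1.20; 6 of the 7 alpha ring genes lie left of the band, and PSMA7 lies at 2.04.

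The alpha ring held both ends of the range. PSMA7, the alpha 4 subunit (ENSG00000101182, chr20:62136733-62143394 on the minus strand of GRCh38, the build of all positions here), summed to 579 RPM in PRMT5 RIP against 141 RPM in input. Its excess was 4.11-fold, and it fell along the gene. The peak nearest the 5′ end, chr20:62142575-62143430, had 97.6 RPM in PRMT5 RIP against 6.9 RPM in input, a 14.1-fold excess. The middle peak, chr20:62139683-62140944, had 267 and 40.3 RPM, or 6.63-fold. The last, chr20:62136883-62139332, had 214 and 93.5 RPM, or 2.29-fold. All 3 peaks were thus past 2-fold, and the one with the most input had the lowest ratio.

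None of the other alpha ring genes with peaks had a clear excess in PRMT5 RIP. Without PSMA7 the median log2 ratio of the ring was -0.03 and the maximum 0.19, that of PSMA2 with 64.2 RPM in PRMT5 RIP against 56.2 RPM in input. PSMA3 had 18.7 and 17.6 RPM, and PSMA5 had 65.3 and 62.8 RPM. These 3 genes were thus a little above input. In PSMA4, PSMA6 and PSMA1 the sum was below input, with 23.8 against 25.6 RPM, 129 against 160 RPM and 21.1 against 32.9 RPM. Of the 44 genes, 4 had less RPM in PRMT5 RIP than in input, these 3 and PSMB2 of the beta ring, beside 2.22% of all genes and 4.98% of genes with at least 10 RPM of input. This order of the sums holds for the deposited RPM only: the peak caller's own log2 fold change, whose scaling is not stated and which lies a median 0.79 above the RPM ratio over all peaks, had a gene median above 0 in all 44 genes.

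PSMA1, the alpha 6 subunit, had the lowest ratio, -0.64. It has a span of 138787 nt on the minus strand of chromosome 11, and its 4 peaks together cover 225 nt. The peak near the start of the span, chr11:14643473-14643597, had 1.01 RPM in PRMT5 RIP against 0.47 RPM in input. The other 3 peaks lie next to each other, from 123378 nt into the span, each with 6.61 to 6.77 RPM in PRMT5 RIP against 10.8 RPM in input. The peak caller gave these 3 peaks FDR values of 0.33 to 0.50, the only FDR values above 0.05 among the 111 peaks. With peaks at or below an FDR of 0.01 only the first peak of PSMA1 was left, at a log2 ratio of 1.09, so its place at the bottom rests on those 3 peaks. PSMA8, the testis form of the alpha 4 subunit, had no peak on its own gene.

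In the constitutive beta ring, PSMB6 was the only gene to reach 2-fold. Its single peak spans nearly the whole gene, chr17:4796169-4798502 on the plus strand, with 359 RPM in PRMT5 RIP against 142 RPM in input, a log2 ratio of 1.34. PSMB6 is the caspase-like catalytic subunit. The chymotrypsin-like subunit PSMB5 had 77.0 and 50.1 RPM (0.62), and the trypsin-like subunit PSMB7 had 160 and 121 RPM (0.41) in 1 peak of 61969 nt, the widest of the 111. The ring's other members have no catalytic site, and they ran from PSMB4 with 220 and 129 RPM (0.77) through PSMB3 (0.35) and PSMB1 (0.30) to PSMB2 with 152 and 176 RPM (-0.21). PSMB2 had the largest summed input of all 44 genes, and PRMT5 RIP was below input in each of its 3 peaks.

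The immunoproteasome subunits are inducible counterparts of the 3 catalytic subunits, and each could be set beside its constitutive partner. PSMB8, which replaces PSMB5, had 74.9 RPM in PRMT5 RIP against 46.5 RPM in input. Its log2 ratio of 0.69 was 0.07 above that of PSMB5. PSMB10, which replaces PSMB7, had 90.5 and 52.8 RPM, a log2 ratio of 0.78 and 0.37 above its partner. PSMB9, which replaces PSMB6, had 41.6 and 16.3 RPM, a log2 ratio of 1.35 and 0.01 above its partner. None of the 3 signs held under every setting: with the deposited log2 fold change the differences of PSMB9 and PSMB10 were -0.08 and -0.01, with a pseudocount of 1 that of PSMB9 was -0.04, and by the peak with the most input that of PSMB8 was -0.02. The value of PSMB9 is uncertain, because the only peak that touches the gene, chr6:32846462-32859536, begins 7730 nt upstream of it and lists another identifier first, ENSG00000204261. A further plus-strand peak with the same pair of identifiers, chr6:32844258-32844627, lies outside the gene and was not counted, with 1.63 RPM in PRMT5 RIP against 1.06 RPM in input. PSMB11, the thymic counterpart of PSMB5, had no peak.

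**Figure D3:**
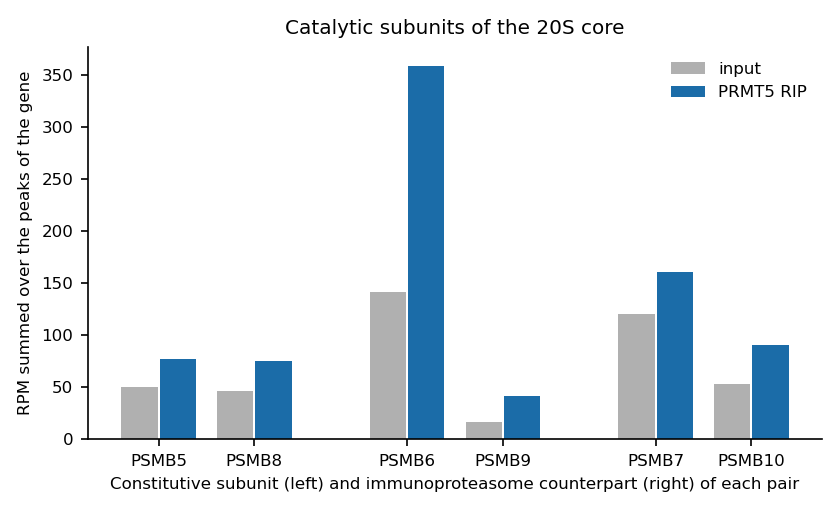
RPM summed over the peaks of each gene (vertical axis, from 0) in input (grey) and PRMT5 RIP (blue) for the 3 constitutive catalytic subunits and their immunoproteasome counterparts, 1 pooled value per bar. PRMT5 RIP was above input in all 6 genes, and PSMB6 and PSMB9 were the ones past 2-fold.

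In the 19S base, the ATPase PSMC3 stood highest. Its 1 peak, chr11:47418794-47426443 on the minus strand, covers nearly the whole gene and had 249 RPM in PRMT5 RIP against 85.3 RPM in input, a log2 ratio of 1.55. The other ATPases with peaks were below 2-fold, from PSMC4 with 98.9 and 53.9 RPM (0.87) through PSMC5 (0.53) and PSMC2 (0.43) to PSMC1 with 53.4 and 40.8 RPM (0.39), the lowest of the base. All 4 peaks of PSMC2 and 2 of the 3 peaks of PSMC1 overlap a peak of the opposite strand. Without such peaks PSMC1 was at 0.60 and PSMC2 had no peak left, so the place of PSMC1 as the lowest depends on them. PSMC6, the remaining ATPase, had no peak. Of the non-ATPase members, the scaffold PSMD2 had 34.3 and 16.7 RPM (1.04) and the scaffold PSMD1 had 6.14 and 3.99 RPM (0.62). The ubiquitin receptor PSMD4 had 180 and 99.0 RPM (0.86). All 8 base genes in the list were above input in summed RPM.

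The 19S lid ran from a 3.58-fold to a 1.20-fold excess. PSMD12 stood highest, with 4.73 RPM in PRMT5 RIP against 1.32 RPM in input, a log2 ratio of 1.83 at a low input. PSMD8 had 397 and 146 RPM (1.44), the third largest summed input of the 44 genes. That place depends on the sum of PSMA6, which includes peaks within a wider one. The 3 peaks of PSMD8 fell from 6.05-fold near the 5′ end through 2.58-fold to 2.03-fold. PSMD3 had 42.2 and 16.4 RPM (1.37). These 3 genes were the ones past 2-fold, and they differ widely in the RPM behind the ratio. The deubiquitinase PSMD14 had 17.9 and 11.9 RPM (0.60) and its partner PSMD7 had 25.8 and 19.3 RPM (0.42). PSMD6 was at 0.81, PSMD13 at 0.28 and PSMD11, with 6.68 and 5.58 RPM, at 0.26.

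Among the activators, which open the core in place of the 19S regulator, the PA28 subunits differed. PSME3, PA28 gamma of the nuclear complex, had 8.25 RPM in PRMT5 RIP against 2.48 RPM in input, a log2 ratio of 1.73. PSME1, PA28 alpha, had 277 and 95.0 RPM (1.54), with peaks of 4.62-fold, 3.08-fold and 1.82-fold from the 5′ to the 3′ end. PSME2, PA28 beta, forms a ring together with PSME1 and had 182 and 117 RPM (0.64) in 1 peak that lists a second identifier. The inhibitor PSMF1 (PI31) had 29.8 and 19.3 RPM (0.62). PSME4, the activator PA200, had no peak.

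Of the 7 assembly factors, 5 were past 2-fold, at inputs from 0.58 to 59.2 RPM with a median of 5.59 RPM. The share of all genes past 2-fold was 86.1% below 1 RPM, 61.0% from 1 to 10 RPM and 33.4% from 10 to 100 RPM. Of the core chaperones, PSMG4 had 15.9 RPM in PRMT5 RIP against 5.92 RPM in input (1.42), PSMG3 had 45.3 and 19.3 RPM (1.23) and PSMG1 had 11.9 and 5.59 RPM (1.08). PSMG2, which pairs with PSMG1, had 2.90 and 2.79 RPM (0.06) and was the lowest of the group. Of the base chaperones, PSMD5 had 1.74 and 0.58 RPM (1.57), PSMD10, also known as gankyrin, had 2.33 and 1.14 RPM (1.02), and PSMD9 had 102 and 59.2 RPM (0.79). The PSMD9 value includes a peak that lists 4 identifiers, and the gene's other peaks, also summed, lie within the span of that peak. PSMC3IP, a recombination factor, and PSME3IP1, the partners that are not subunits, were at 1.43 and 1.06.

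Within a gene the ratio was usually higher at the 5′-most peak than at the 3′-most. Of 33 proteasome genes with several peaks, 30 had a higher log2 ratio at the 5′-most peak than at the 3′-most, or 90.9%, beside 69.7% of the 4657 genes of the list with at least 2 peaks. The median was 1.03 at the 5′ peak and 0.37 at the 3′ peak, and the median difference was 0.61. Over the whole list the medians were 1.39 and 0.96. The 5′-most and the 3′-most peaks of the proteasome genes were thus both below the list's medians. These outermost peaks need not lie at the ends of a gene. The 3′-most peak of PSME3 was centred at 0.10 of the gene's span, and the 5′-most of PSMG2 at 0.69. The 5′ peak was at least 2-fold in 17 of the 33 genes, beside 70.2% over the whole list, and the 3′ peak in 5, beside 48.2%.

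**Figure D4:**
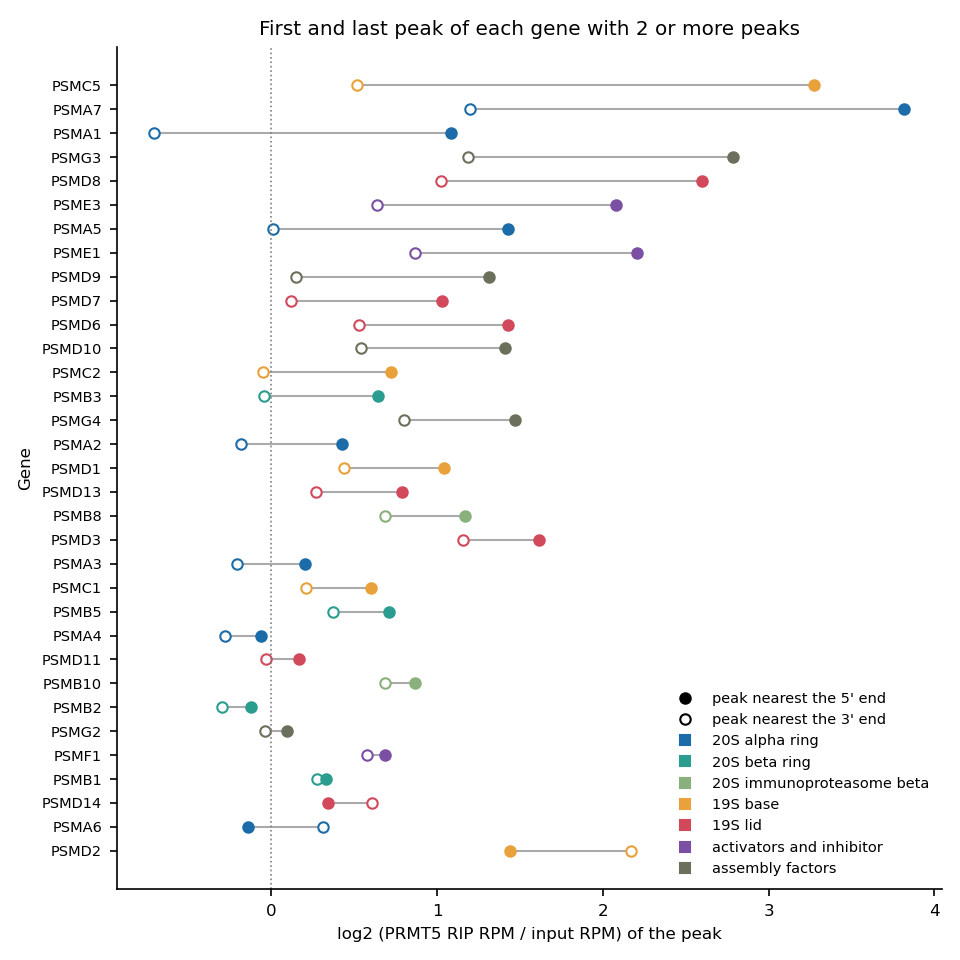
Log2 ratio of PRMT5 RIP to input RPM (horizontal axis) at the peak whose midpoint is nearest the 5′ end (filled) and the peak whose midpoint is nearest the 3′ end (open) of the 33 proteasome genes with at least 2 peaks (vertical axis), sorted by the difference and coloured by structural group. The filled point lies to the right in 30 genes, and PSMD14, PSMA6 and PSMD2 at the bottom are the exceptions.

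Differences between the first and the last peak were large in a few genes of several groups. In PSMC5 the 5′ peak was 2.75 above the 3′ peak on the log2 scale, but it held only 0.28 RPM in PRMT5 RIP against 0.02 RPM in input and lay over a peak of the opposite strand. The difference was 2.62 in PSMA7, 1.79 in PSMA1, 1.60 in PSMG3 and 1.58 in PSMD8. In the core chaperone PSMG3 the 5′ peak had 0.61 and 0.08 RPM, while the last peak had 42.9 and 18.9 RPM and thus carried nearly all of the gene's signal. PSMD2, PSMA6 and PSMD14 ran the other way, by -0.73, -0.45 and -0.26. The 3′ peak of PSMD2 was 50 nt wide, with 0.53 and 0.11 RPM. The first peak by midpoint began within 50 nt of the annotated gene start in 30 of the 44 genes, and exactly at it in 10. In PSMD9 and PSMA6 that first peak lies within a wider peak, which began 31 and 154 nt from the gene start.

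Counted by peak, most of the low ratios lay in the 20S core. PRMT5 RIP was below input in 24 of 111 peaks, or 21.6%, beside 3.84% of all 18993 peaks. These 24 peaks belonged to 11 genes, and 21 of them lay in the constitutive core, 15 of 25 alpha ring peaks and 6 of 14 beta ring peaks. The base, the lid and the assembly factors had 1 each. The 24 peaks are not independent of each other. PSMA1 gave 3 that lie next to each other, with FDR values of 0.33 to 0.50. PSMA6 gave 4, some of them within the span of a wider one. The share of all peaks is not matched to the proteasome peaks in input or width. Past 2-fold were 33 of 111 peaks, or 29.7%, beside 55.7% of all peaks. By the deposited log2 fold change 1 of the 111 peaks was below 0, a peak of PSMA6 at -0.14.

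The peaks of proteasome genes were wide. Their median width was 1262 nt, against 275 nt for all peaks, with 27 peaks over 5000 nt and 16 of the smallest width, 25 nt. Wide peaks run across introns, and whether reads came from exons or introns was not analysed here. Peaks over a peak of the opposite strand numbered 12, in 7 genes, beside 18.1% of all peaks, and 12 peaks in 8 genes listed several identifiers, beside 8.62%. In PSMD7 the 3′ peak had 15.5 and 14.2 RPM, and the peak of the other strand across it had 14.0 and 12.5 RPM, so the reads of the 2 strands cannot be told apart there. Many proteasome genes also have processed pseudogenes, and how reads that fit several places were counted is not given in the sources used here.

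Short proteasome genes had higher ratios than long ones. Over the 44 genes, Spearman's rho between the log2 ratio and the gene's annotated length was -0.51, and it was 0.13 over 7187 named protein-coding genes. Among genes with at least 10 RPM of input the values were -0.61 for 35 proteasome genes and -0.19 for 2126 genes. The 22 shorter genes, up to 12.7 kb, had a median log2 ratio of 0.95 with 11 past 2-fold, and the 22 longer genes had a median of 0.40 with 4 past 2-fold, both beside 62.3% of all genes of the list. With at least 10 RPM of input, where 35 of the 44 genes lie, the share of all genes was 32.7%. PSMA7, PSMB6, PSMC3 and PSME1 were among the short ones. So was PSMA4, while the remaining alpha ring genes with peaks, PSMA1, PSMA2, PSMA3, PSMA5 and PSMA6, were among the long ones. Length was not separated from structural group or input. The genes of each set share the same pooled libraries, so these correlations are descriptions across genes.

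Genes of other large complexes had medians close to that of the proteasome genes. The median log2 ratio was 0.68 for 81 cytosolic ribosomal protein genes, of which 24 reached 2-fold, and 0.68 for 79 nuclear genes of the respiratory chain, of which 26 did, beside 62.3% of all genes. With at least 10 RPM of input, 23 of 76 and 24 of 69 did, beside 32.7%. PRMT5 RIP was below input in 13 of the ribosomal and 7 of the respiratory chain genes, beside 4 of the 44 proteasome genes and 2.22% of all genes (4.98% at 10 RPM or more). None of these differences could be tested with 1 pooled value per gene.

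A list of genes that act with the proteasome had a higher median than the proteasome genes, at lower input. Of 32 such genes, 28 had peaks, with a median summed input of 3.56 RPM. Their median log2 ratio was 1.21, beside 1.20 for all genes, and 20 reached 2-fold, beside 62.3%. Among the 11 with at least 10 RPM of input, 4 reached 2-fold, beside 32.7%, and the median was 0.41. With at least 1 RPM of input, the highest were the deubiquitinase USP5 with 6.20 and 1.48 RPM (2.06), the ubiquitin ligase UBE3A (1.80) and the ubiquitin-activating enzyme UBA1 (1.78). RPS27A, which encodes ubiquitin fused to a ribosomal protein, had 691 RPM in PRMT5 RIP against 560 RPM in input (0.30), near the low end, and UBB, a polyubiquitin gene, was at 1.20. ADRM1, a ubiquitin receptor of the base that has no PSM symbol, had 251 and 102 RPM (1.30), the lid subunit SEM1 was at 1.13 and the core assembly factor POMP at 0.38. ECPAS, HUWE1, UBQLN4 and UBA6 had no peak.

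Promoters of proteasome genes were read because NFE2L1, a transcription factor known to raise proteasome gene expression when the proteasome is inhibited, binds antioxidant response elements. The core of that element, TGACNNNGC on either strand, was searched from 250 nt before to 50 nt after the RefSeq gene starts of GRCh38.p14. It was found for 15 of 42 proteasome symbols with an entry, or 35.7%, beside 17.9% of 15843 protein-coding symbols, and a symbol with several listed starts counted when any of them held it. Printed here are 4 sites upstream of the gene on the gene's own strand that show how the free bases differ between genes, each 5′ to 3′ on the gene's strand with the match in capitals:
PSMB3, chr17:38752629-38752653: ctccgtttTGACTTTGCaaccaaac
PSMD3, chr17:39980762-39980786: ccctttgtTGACTCGGCcatcggcc
PSMD12, chr17:67366726-67366750: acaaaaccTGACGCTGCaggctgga
PSME1, chr14:24136100-24136124: ggcagggcTGACCCCGCctcctcca
These 4 genes had log2 ratios of 0.35, 1.37, 1.83 and 1.54, in that order. Other genes with such a site upstream of a listed start on their own strand ran from -0.11 in PSMA4 and 0.06 in PSMG2 to 1.57 in PSMD5. PSMA4 has 3 listed starts, and its site, chr15:78540652-78540676, lies within the gene's annotated span. A link between motif and ratio was not tested. The median log2 ratio was 0.83 for 14 proteasome genes with the motif and a peak and 0.61 for 24 without it. NFE2L1 itself had 5.54 RPM in PRMT5 RIP against 0.99 RPM in input, a log2 ratio of 2.47. Below 1 RPM of input, 86.1% of all genes reached 2-fold.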

How the data were processed

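One peak list of the series was used. Per the labels, fastp and HISAT2 and the build hg38 were used by the submitters, and versions, the peak caller and the pooling of replicates are not given in the sources used here. The authors deposited 1 pooled RPM value of PRMT5 RIP and 1 of input per peak, both rounded to 0.01, beside the peak caller's log2 fold change, p-value and FDR for each peak. The depth per library is unknown, so no interval was computed.

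Peaks were named by the supplement's symbol (4 genes) or by position in RefSeq GRCh38.p14 spans (42 genes), a rule that gave 826 of 838 supplement symbols the same identifier. For 6 genes whose strand the tables used here do not give, it was taken from the peaks. The RPM of a gene's peaks was summed, and log2 ratios used a pseudocount of 0.01. Peaks were ordered from 5′ to 3′ by their midpoints. A call was a 2-fold ratio, and the main counts were set beside the share over all genes. With 1 pooled value a group there was no test. The gene ratio and the 2-fold call were checked on simulated ratios without noise, which shows only that this arithmetic runs as written. The naming of peaks, their order and the promoter search were not part of that check. The genes named were PSMB5 to PSMB10, the highest and lowest of each group with at least 1 RPM of input, the 3 with the largest input, those without a peak, and the 3 highest and 3 lowest of the list of other ubiquitin and proteasome genes, with other members added after their values were seen. Some items that this rule names are not reported here. Members, lists and groups were chosen with earlier results of these data known, and the higher ratio of 5′ peaks across the list was among them. Alternatives covered peak filters, identifiers, measure, pseudocount and threshold. The computation ran in Python 3.11.15 (scipy 1.17.1, numpy 2.4.6, pandas 2.3.3).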

Additional observations from a re-analysis of the deposited data

How the results depend on the processing

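No paired analysis was possible because the list holds 1 pooled value for the 2 PRMT5 RIP libraries and 1 for the 2 input libraries, and for the same reason leaving out a replicate was not run. Of the main results under each alternative, 244 values kept within 1.5 times (0.58 in log2) of the reported one and 11 moved further. Several differences are smaller than 0.58, so they could change sign and still count as kept. The 15 proteasome genes at 2-fold became 34 with the deposited log2 fold change, 27 at a fold of 1.5, 3 at a fold of 3, and 9 with a summed input of at least 10 RPM. The share of all genes, 62.3%, became 94.9%, 30.1% at a fold of 3, 32.7% with that input, and 30.0% with a pseudocount of 1. The deposited log2 fold change raised the median of the proteasome genes to 1.48, of all genes to 2.06 and of the other ubiquitin and proteasome genes to 2.14, since it lies above the RPM ratio throughout. It also put PSMA1, PSMA6 and PSMB2 above 0, at 1.41, 1.20 and 0.49. The alpha ring's median less that of all genes ran from -1.34 to -0.69 on the log2 scale in every alternative run, and that of the assembly factors from -0.15 to 0.23. For the base it ran from -0.58 to 0.08, for the immunoproteasome subunits from -0.55 to 0.02 and for the activators and inhibitor from -0.19 to 0.32. The beta ring and the lid stayed below all genes, at most at -0.34 and -0.08. PSMA7 was at 1.20 by its highest input peak and 2.73 by the median of its peaks. The 5′ peak was higher in 84.8% to 93.3% of genes. The filter at 10 RPM, the first-listed identifier and the removal of nested peaks were added after the data were seen. Depth limits peaks of a few hundredths of an RPM, such as the 5′ peak of PSMC5, where rounding alone changes the ratio.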

Other observations

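The opposite strand also held peaks inside the proteasome genes. Within the spans of the subunits and factors, 13 peaks lay on the other strand, in 8 genes, and 9 of them overlapped a peak of the proteasome gene. The 1 in PSMB8 lists the identifier of PSMB9 second. PSMC1 had 4 of these across its 3′ part, listed under ENSG00000119720, with 1.84 to 9.25 RPM in PRMT5 RIP and 1.75 to 8.79 RPM in input. In the first peak of PSMD11, 25 nt wide, both strands had 0.54 RPM in PRMT5 RIP against 0.48 RPM in input. At PSMA8, which had no peak of its own, the other strand held 2 peaks of ENSG00000188985, with 0.16 and 0.89 RPM in PRMT5 RIP and 0.05 and 0.42 RPM in input.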
